A study of Mus musculus with 24 samples.

Results

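The 10 genes described here are Serpina protease inhibitor genes of the mouse: Serpina1a, Serpina1b, Serpina1c, Serpina1d, Serpina1e, Serpina3b, Serpina3c, Serpina3g, Serpina3k and Serpina3n. They were taken by symbol from a count table of 24421 genes that holds 25 symbols of serpin clade A, and all 10 were present. The family was chosen from results of these same data, in which Serpina3b and Serpina1a had been seen to differ between mutant and WT females. Genotype differences in females are therefore given as a description, with no test. Which values chose the members is not recorded in full, so a part of the male values in that choice is not known. Total RNA-seq was run on adipose tissue from C57BL/6 mice aged 2 months. WT mice were set beside mice with the STAT5B substitution Y665F (a tyrosine changed to phenylalanine) and mice with Y665H (the same tyrosine changed to histidine). Each genotype had 4 male and 4 female libraries, 24 in all, and no treatment, zygosity or fat depot is named in the labels. Nothing says whether libraries of a group came from separate mice, so p-values measure the spread between these libraries only.

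Serpins inhibit proteases by offering a reactive loop as bait, after which the cleaved inhibitor traps the enzyme in a covalent complex. The Serpina1 genes are the mouse copies of alpha-1-antitrypsin, the plasma inhibitor of neutrophil elastase made mainly by the liver. The Serpina3 genes are the expanded mouse relatives of human alpha-1-antichymotrypsin. STAT5B is a transcription factor that growth hormone and cytokine receptors activate through tyrosine phosphorylation, and its SH2 domain, which holds the substituted tyrosine, mediates receptor docking and dimerisation.

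All 10 genes lie in a cluster on chromosome 12 (GRCm38), between the start of Serpina1b at 103728156 and the end of Serpina3n at 104414329. Transcripts of Serpina1a to Serpina1e were 94.8 to 97.6% identical to each other, against 72.8 to 87.1% among the 5 Serpina3 members. Of the 100-base windows of a transcript, 58.5% in Serpina1c, 49.9% in Serpina1a, 29.3% in Serpina1d, 26.4% in Serpina1b and 18.2% in Serpina1e also occur word for word in another Serpina1 copy or in Gm8893. A read pair that lies wholly in such shared sequence cannot be assigned to 1 gene, so the split of counts among the Serpina1 copies is uncertain. Serpina3b and Serpina3c had no shared window, and Serpina3n shared 0.204%, Serpina3g 4.64% and Serpina3k 4.85% of theirs, the last with Serpina3m.

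The 250 bases before the RefSeq start (GRCm38.p6) are shown for 6 members whose levels moved together or apart in the results that follow. Each is written 5′ to 3′ on the gene's own strand, and capitals mark matches to ACANNNTGT, the core spacing of steroid receptor elements. The promoter windows of Serpina1a and Serpina1c were 94.9% identical, those of Serpina1a and Serpina1d 92.9%, and those of Serpina3c and Serpina3n 93.5%.
Serpina1a, chr12:103863620-103863869, minus strand: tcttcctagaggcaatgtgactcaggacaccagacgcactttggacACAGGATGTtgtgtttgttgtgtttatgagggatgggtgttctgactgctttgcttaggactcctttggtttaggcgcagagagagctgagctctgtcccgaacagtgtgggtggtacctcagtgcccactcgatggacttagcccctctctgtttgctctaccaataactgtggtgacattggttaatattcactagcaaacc
Serpina1c, chr12:103904951-103905200, minus strand: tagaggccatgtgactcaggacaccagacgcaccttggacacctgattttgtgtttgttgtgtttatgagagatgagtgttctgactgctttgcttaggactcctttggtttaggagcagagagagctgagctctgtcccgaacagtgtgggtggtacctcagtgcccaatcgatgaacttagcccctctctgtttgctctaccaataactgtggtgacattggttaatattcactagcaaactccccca
Serpina1d, chr12:103773634-103773883, minus strand: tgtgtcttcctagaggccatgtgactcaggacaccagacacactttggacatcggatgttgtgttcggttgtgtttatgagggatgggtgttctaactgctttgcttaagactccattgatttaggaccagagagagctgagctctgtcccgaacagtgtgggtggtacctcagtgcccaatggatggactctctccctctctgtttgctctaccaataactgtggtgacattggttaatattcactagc
Serpina3b, chr12:104127746-104127995, plus strand: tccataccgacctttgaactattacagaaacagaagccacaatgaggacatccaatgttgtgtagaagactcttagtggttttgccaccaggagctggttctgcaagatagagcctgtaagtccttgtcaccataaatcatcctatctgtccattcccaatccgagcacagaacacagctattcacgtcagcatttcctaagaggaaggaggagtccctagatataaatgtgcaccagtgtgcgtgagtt
Serpina3c, chr12:104153873-104154122, minus strand: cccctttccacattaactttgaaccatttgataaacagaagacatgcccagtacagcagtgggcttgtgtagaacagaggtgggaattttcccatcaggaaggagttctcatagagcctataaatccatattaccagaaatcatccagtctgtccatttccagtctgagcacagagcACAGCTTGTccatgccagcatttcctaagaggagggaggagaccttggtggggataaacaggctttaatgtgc
Serpina3n, chr12:104406458-104406707, plus strand: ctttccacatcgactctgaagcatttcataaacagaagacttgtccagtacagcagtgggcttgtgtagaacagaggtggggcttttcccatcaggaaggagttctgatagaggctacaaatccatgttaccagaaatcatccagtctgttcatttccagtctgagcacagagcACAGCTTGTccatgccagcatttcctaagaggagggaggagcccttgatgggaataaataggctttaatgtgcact

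Windows of 300 bases, 250 before to 50 after the start, were searched for 2 palindromic motifs, each of which reads the same on both strands, for the 9 members with a RefSeq entry; Serpina3k had none. ACANNNTGT occurred once in Serpina1a (ACAGGATGT, 204 bases before the start), Serpina3c (ACAGCTTGT, 73 bases before) and Serpina3n (ACAGCTTGT, 76 bases before), and in 6.83% of 32544 promoters of the same length. TTCNNNGAA, the motif that STAT5 dimers bind, occurred only in Serpina3g (TTCCCAGAA, 33 bases before the start) and in 8.33% of all promoters. These matches describe letters in a window and are not evidence of binding.

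Levels are counts per 1e6 gene counts (CPM), with library depths of 21.0 to 41.3 M gene counts (M, 1e6; median 34.6 M). Where a library has no count, 3 counts are taken as the upper limit, which is 0.0726 to 0.143 CPM, and this covers counting error only. Stat5b, the mutated gene, had means of 94.7 to 115 CPM in the 6 groups, and gene counts cannot show a point mutation. All 12 adipocyte markers were detected, with a summed level of 13100 to 29100 CPM in 23 libraries and of 8250 CPM in WT male 2. That library also had the highest epididymis marker sum, 13700 CPM, and WT male 3 the next, 3350 CPM. Over the other male libraries the epididymis sum ran from 0.0251 to 1660 CPM, and over all females it was at most 0.584 CPM. Hepatocyte markers summed to 4.43 to 30.9 CPM over all 24 libraries, with 1 to 3 of the 15 at a mean of 1 CPM or more in each group.

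Serpina3n, a secreted inhibitor of granzyme B and leukocyte elastase that rises in the acute phase response, and Serpina3c were the abundant members. They took up 61.7% and 30.5% of all counts on the 10 genes. Per kilobase of transcript, WT females had means of 117 CPM for Serpina3n and 55.3 for Serpina3c, then 5.96 for Serpina1a, 4.26 for Serpina3b and 2.36 for Serpina1c. Serpina3g (0.815), Serpina3k (0.416), Serpina1d (0.336), Serpina1b (0.31) and Serpina1e (0.0741) were below 1 CPM per kilobase there.

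**Figure D1:**
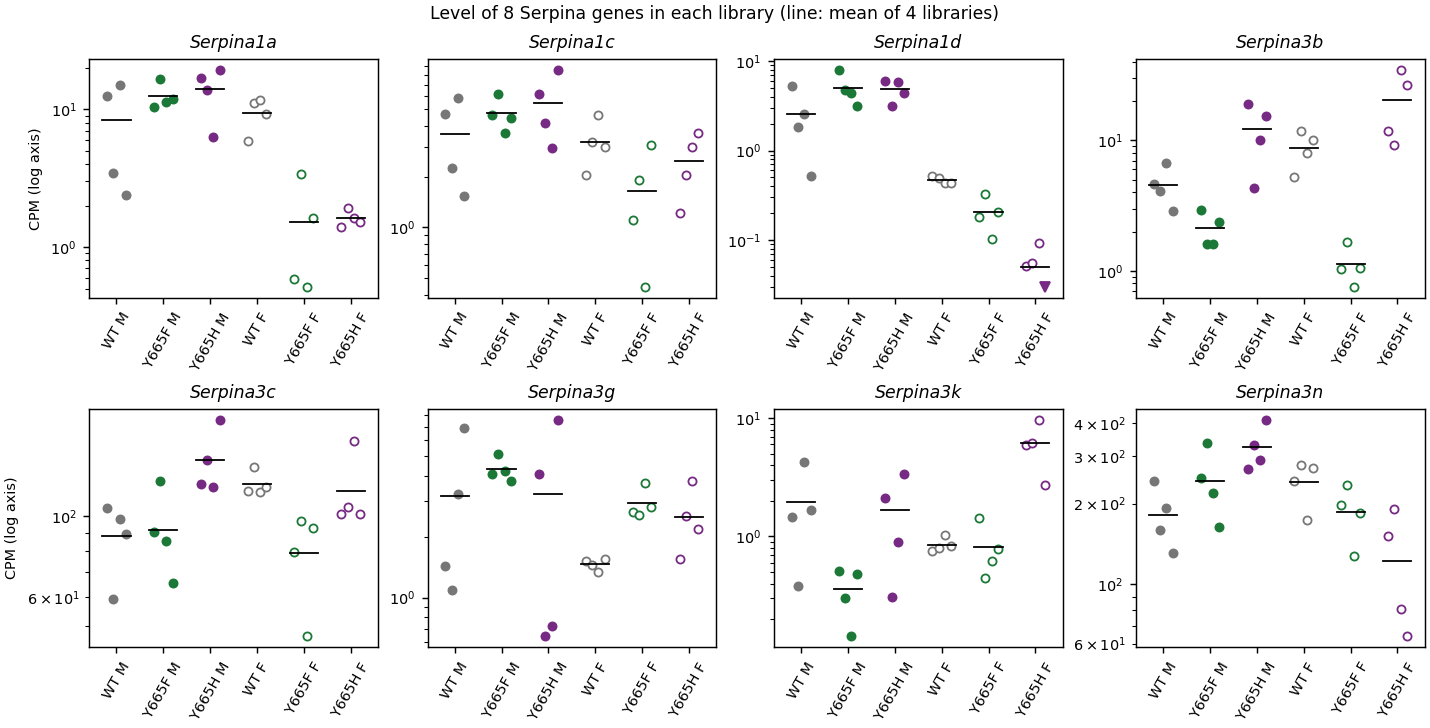
CPM (log axis) of 8 members in each of the 24 libraries, by group (M, male, filled; F, female, open; line, mean of 4 libraries; triangle, a count of 0 set at the lower edge). Serpina3b is higher in every Y665H library than in any Y665F library of the same sex. In CPM, Serpina1d is higher in every male library than in any female library. The closest male library (WT, 18 counts, 0.521 CPM) and female library (WT, 19 counts, 0.515 CPM) differ within counting error. The share of all genes that part the sexes in this way is not given here.

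Among males, Serpina3b was the member with a difference between genotypes that passed the test, between the 2 mutants. It was at 2.92, 1.61, 1.62 and 2.37 CPM in Y665F males (replicates 1 to 4) and at 19.0, 4.29, 10.1 and 15.4 CPM in Y665H males. WT males were at 4.66, 4.06, 6.70 and 2.89 CPM and overlapped both mutants, and only their mean (4.58 CPM) lay between those of the mutants. The Y665H and Y665F libraries did not overlap, which held for 6.29% of all genes tested in that direction, and the lowest Y665H library was replicate 2. Means were 12.2 ± 6.40 and 2.13 ± 0.637 CPM (SD, n = 4 each), a 5.72-fold difference (log2 fold change 2.45 ± 0.42 SE, adjusted p 0.0372 by edgeR). Serpina3b is also a gene by which the family was noticed in females, and whether male values had a part in that choice is not recorded.

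Of the 9 members tested in that contrast, Serpina3b alone was called (adjusted p under 0.05), and it was higher, against 1.03% of 15986 genes called in either direction and 0.125% called higher. The other 8 had adjusted p-values up to 0.888. Serpina3k, the kallikrein-binding inhibitor made mainly by the liver, had the next largest difference, at 2.11, 0.308, 0.907 and 3.36 CPM in Y665H males and 0.513, 0.301, 0.143 and 0.481 CPM in Y665F males (log2 fold change 2.12 ± 0.69 SE, adjusted p 0.163 by edgeR). Its groups overlapped through Y665H male 2. Serpina3c and Serpina3n differed by 0.57 (± 0.22 SE, adjusted p 0.229 by edgeR) and 0.37 (± 0.24 SE, adjusted p 0.451 by edgeR).

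The Serpina3b call rests on all but 1 of the 8 libraries: it held without Y665H male 2 (edgeR adjusted p 0.0223), and leaving out any other library ended it, with log2 fold changes of 2.16 to 2.72 and adjusted p-values up to 0.147. With the replicate number as a block the call was also lost (adjusted p 0.0828 by edgeR), and DESeq2 gave an adjusted p of 6.06e-07. T and NK cell markers moved with the same contrast: all 13 had lower fitted levels in Y665H males, 3 of them called (Gzmb, Grap2, Cd2), and their sum was 70.3 to 120 CPM in Y665F and 13.7 to 41.4 CPM in Y665H males. Adipocyte markers summed to 13100 to 22300 and 20500 to 26400 CPM. Their part in the Serpina3b difference was not tested. In bulk tissue, fewer cells of a type and less RNA per cell cannot be told apart.

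Against WT males, no member was called in either mutant, and the 2 contrasts share their WT libraries. For Y665F, 0 of 9 members and 0% of 16240 genes were called by edgeR, with 3 members and 17.1% of genes at an unadjusted p under 0.05. Those 3 were Serpina3b (log2 fold change -1.07 ± 0.33 SE, adjusted p 0.235 by edgeR), Serpina3k (-2.38 ± 0.72 SE, adjusted p 0.233 by edgeR) and Serpina1b (0.87 ± 0.37 SE, adjusted p 0.282 by edgeR). Serpina3k was at 1.47, 0.384, 4.26 and 1.68 CPM in WT males, so that WT male 2 overlapped the Y665F libraries, and it was called by DESeq2 (adjusted p 0.0371). The median log2 fold change was 0.47 over the members and -0.04 over all genes tested. Marker lists moved in the same contrast without a call: all 13 T and NK cell markers (median 1.88), all 7 B cell and all 10 macrophage markers had positive fold changes, and the 7 epididymis markers tested had negative ones (median -4.32). Their part in the member values was not tested.

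For Y665H, 0 of 9 members and 0% of 16406 genes were called by edgeR, and DESeq2 called no member either. At an unadjusted p under 0.05 there were 3 members and 11.4% of genes. Serpina3n was at 270, 332, 292 and 412 CPM in Y665H males and at 243, 160, 192 and 131 CPM in WT males, and the groups did not overlap (log2 fold change 0.85 ± 0.24 SE, adjusted p 0.402 by edgeR). Serpina3c did not overlap either, with 122, 142, 120 and 184 against 105, 59.0, 98.3 and 89.2 CPM (0.70 ± 0.22 SE, adjusted p 0.402 by edgeR).

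These 2 of 9 members were the ones higher without overlap, against 2.43% of all genes tested. Serpina3b had a log2 fold change of 1.39 (± 0.44 SE, adjusted p 0.402 by edgeR) and overlapped WT through Y665H male 2. The median over the members was 0.70, against -0.05 over all genes. Without a call, adipocyte markers had positive fold changes in 11 of 12 (median 0.46) and macrophage markers in 10 of 10 (median 0.40), while epididymis markers were negative in 7 of 7 tested (median -5.82) and epithelial markers in 9 of 9 (median -1.96). Their part in the Serpina3c and Serpina3n values was not tested.

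**Figure D2:**
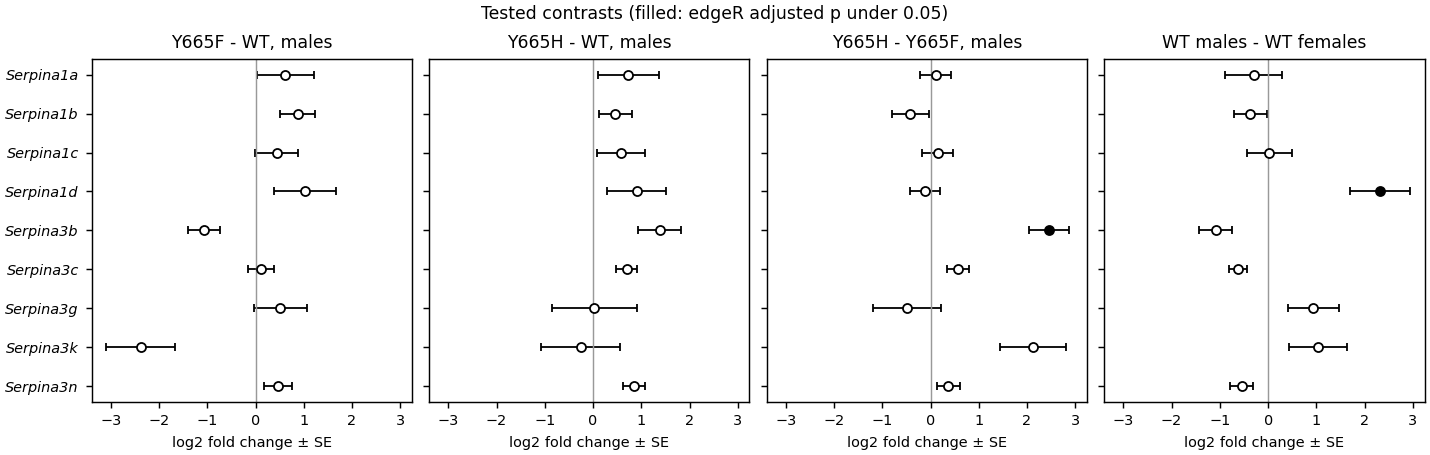
Log2 fold change ± SE of 9 members in the 4 tested contrasts, each fitted on 8 libraries; filled points have an edgeR adjusted p under 0.05. Serpina3b in Y665H against Y665F males and Serpina1d in WT males against WT females are the filled points.

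The alpha-1-antitrypsin copies did not separate the male genotypes. Serpina1a, the most abundant copy, was at 12.5, 3.42, 15.0 and 2.40 CPM in WT males, at 10.4, 16.5, 11.2 and 11.9 CPM in Y665F males and at 16.9, 13.7, 6.32 and 19.3 CPM in Y665H males. WT males 2 and 4 were the low libraries. The tests gave log2 fold changes of 0.62 (± 0.59 SE, adjusted p 0.579 by edgeR) for Y665F and 0.73 (± 0.63 SE, adjusted p 0.533 by edgeR) for Y665H against WT.

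Serpina1c was at 4.69, 2.24, 5.84 and 1.53 CPM in WT males, with the same 2 low libraries, and at 3.62 to 6.18 CPM in Y665F and 2.96 to 8.54 CPM in Y665H males. Serpina1b stayed between 0.288 and 1.03 CPM in males. Serpina1e had at most 0.363 CPM in any library and did not pass the filter on low counts in any main contrast.

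Serpina1d was the copy called between WT males and WT females. It was at 5.21, 1.85, 2.56 and 0.521 CPM in WT males and at 0.515, 0.493, 0.430 and 0.434 CPM in WT females. The groups did not overlap in CPM, as for 18.2% of all genes in that direction. WT male 4 (18 counts) was above WT female 1 (19 counts) only through library depth, a gap within counting error. Means were 2.54 ± 1.97 and 0.468 ± 0.0427 CPM (SD, n = 4 each), a 5.42-fold difference (log2 fold change 2.32 ± 0.63 SE, adjusted p 0.0461 by edgeR). The WT females also enter the female contrasts in which the family was noticed.

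Of the 9 members tested between WT males and WT females, Serpina1d alone was called, and higher in males, against 13.1% of 15865 genes called and 7.15% called higher in males. Without WT male 1 or WT male 4 the call held, and without any other single library it was lost. Adjusted p-values then ran from 0.0134 to 0.122 and log2 fold changes from 1.64 to 2.66. With the replicate number as a block its adjusted p was 0.0998, without the filter on low counts it was 0.064, and without WT males 2 and 3, the libraries highest in epididymis markers, it was 0.11.

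The mutant males had Serpina1d at 7.96, 4.70, 4.43 and 3.11 CPM (Y665F) and 6.03, 3.11, 5.89 and 4.40 CPM (Y665H). Mutant females had at most 0.325 CPM, and in Y665H females the gene was at 0.0516, 0.0549, 0.0933 and 0 CPM, with 7 counts in all. In CPM, every male library was thus above every female library. The closest were WT male 4 (0.521 CPM, 18 counts) and WT female 1 (0.515 CPM, 19 counts), a gap within counting error. The share of all genes that part the male from the female libraries in this way is not given here. Serpina1a overlapped between the sexes in WT, but in each mutant every male was above every female, a description with no test. The values were 10.4 to 16.5 against 0.515 to 3.40 CPM in Y665F and 6.32 to 19.3 against 1.39 to 1.92 CPM in Y665H. Low Serpina1a in mutant females is among the values that chose the family, so this gap is no independent evidence. In Y665F males 2 and 3, where epididymis markers summed to 0.0251 and 0.286 CPM, Serpina1d was at 4.70 and 4.43 CPM. Y665H male 3, with an epididymis sum of 1660 CPM, had 5.89 CPM. The part of epididymis tissue in the Serpina1d levels was not tested.

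Serpina1d made up 10.2 to 37.6% of the counts on the 5 Serpina1 copies in males and 0 to 7.35% in females. The sum of the 5 copies, which does not depend on how counted reads were split among them, was 5.12 to 24.1 CPM in WT males and 8.90 to 17.4 CPM in WT females, and these ranges overlapped. Because of the shared windows, the reads under Serpina1d could include reads of its neighbours and the reverse. In GENCODE M21, a Serpina1b transcript also spans the Serpina1d gene.

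**Figure D3:**
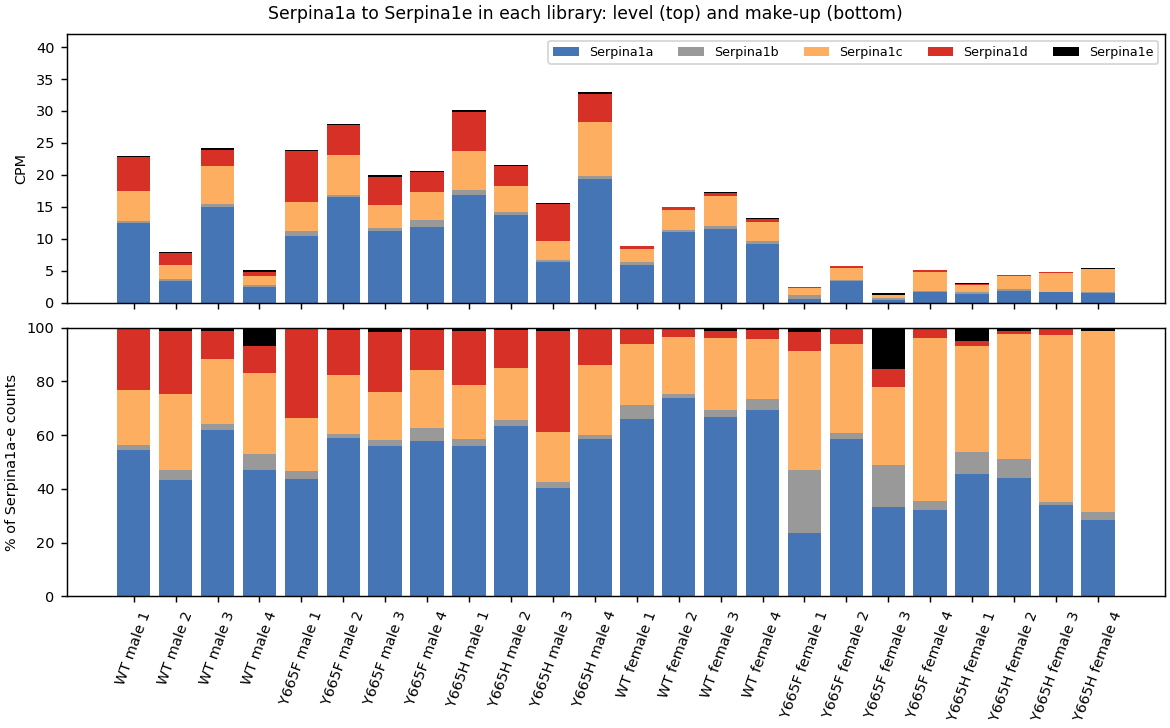
Summed CPM of Serpina1a to Serpina1e in each library (top) and the share of each copy in percent (bottom). Mutant females sum to 1.55 to 5.82 CPM and every male library holds at least 10.2% Serpina1d, against at most 7.35% in females.

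Tissue content also differed between WT males and WT females. All 10 epididymis markers had a mean of at least 1 CPM in WT males (sum 1.06 to 13700 CPM), and 9 of them had no count in WT females. Besides these, thermogenic adipocyte markers summed to 11.9 to 21.1 CPM in males and 45.1 to 95.3 CPM in females. Skeletal muscle markers summed to 20.7 to 28.1 CPM in males and 96.3 to 1050 CPM in females, and epithelial markers to 40.4 to 1430 and 16.3 to 113 CPM. Adipocyte markers had lower fitted levels in WT males in 12 of 12 (median log2 fold change -0.72), and progenitor and fibroblast markers in 8 of 8 (median -0.94, 5 called; sums of 3340 to 5040 against 6180 to 11600 CPM), the direction of Serpina3b, Serpina3c and Serpina3n. The part of these in any difference between the sexes was not tested.

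The Serpina3 members did not pass the test between the sexes in WT. Serpina3c was at 117, 136, 116 and 120 CPM in WT females, above every WT male, as for 7.01% of all genes (log2 fold change -0.62 ± 0.19 SE, adjusted p 0.0589 by edgeR, males against females). Serpina3b was at 5.26, 11.9, 7.96 and 10.1 CPM in WT females and overlapped the males (-1.09 ± 0.35 SE, adjusted p 0.0697 by edgeR). DESeq2 called both, with adjusted p-values of 0.0147 for Serpina3c and 0.0165 for Serpina3b, but the levels of Serpina3b in these WT females are among the values that chose the family, so its test is no independent evidence. Over the 9 members the median was -0.30, against 0.04 over all genes.

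**Figure D4:**
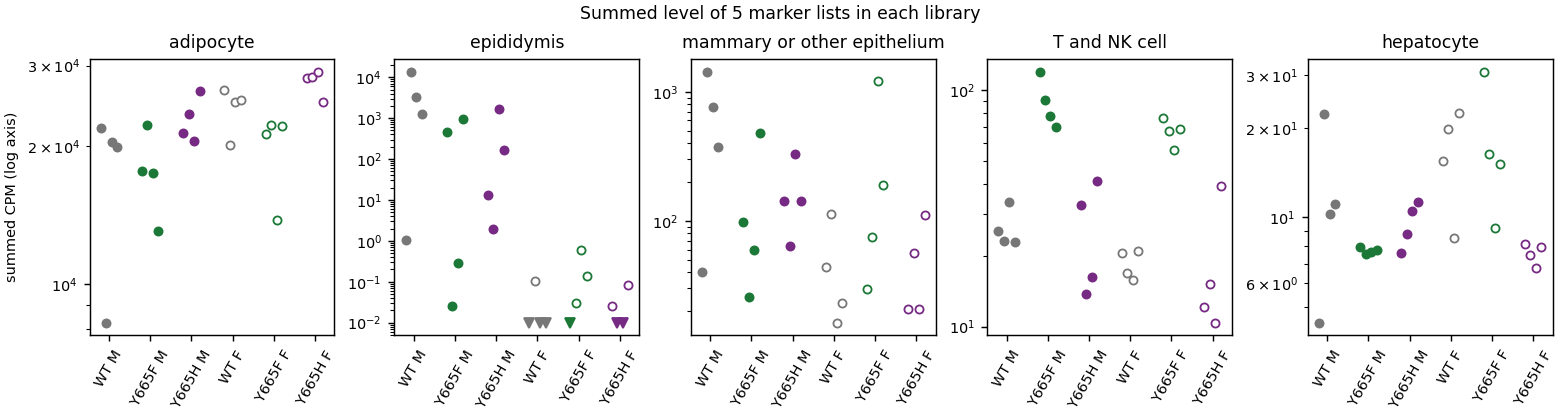
Summed CPM (log axis) of 5 marker lists in each library, by group (M, male, filled; F, female, open; triangle, a sum of 0 set at the lower edge). Y665F libraries of both sexes have the highest T and NK cell sums, and WT male 2 has the lowest adipocyte sum (8250 CPM) and the highest epididymis sum (13700 CPM).

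In females, genotype contrasts had drawn attention to the family. The summed copies of alpha-1-antitrypsin were lower in both mutants than in WT, while the mean of Serpina3b was lower in Y665F and higher in Y665H. Serpina1a was at 5.86, 11.1, 11.6 and 9.19 CPM in WT females, at 0.586, 3.40, 0.515 and 1.63 CPM in Y665F and at 1.39, 1.92, 1.62 and 1.53 CPM in Y665H females. Both mutants lay below every WT library. The sum of the 5 copies was 1.55 to 5.82 CPM in Y665F and 3.07 to 5.40 CPM in Y665H females, against 8.90 to 17.4 CPM in WT females.

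Serpina1c, the copy with most shared windows, showed less of this, at 2.03, 3.19, 4.65 and 2.98 CPM in WT, 1.10, 1.92, 0.446 and 3.09 CPM in Y665F and 1.21, 2.03, 2.98 and 3.64 CPM in Y665H females, with overlap. As assigned by the counting, whose split among the copies is uncertain, and from as few as 45 counts in Y665F female 3, Serpina1a gave 65.9 to 73.7% of Serpina1 counts in WT females, 23.5 to 58.4% in Y665F and 28.4 to 45.4% in Y665H females. Hepatocyte markers, a list without serpins of clade A, summed to 8.52 to 22.4 CPM in WT, 9.24 to 30.9 CPM in Y665F and 6.75 to 8.16 CPM in Y665H females.

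Serpina3b was at 1.03, 1.66, 0.755 and 1.05 CPM in Y665F females and at 11.8, 9.17, 34.7 and 26.4 CPM in Y665H females, on either side of WT. Y665F lay below every WT library, and Y665H overlapped WT at its lower end. The log2 fold changes were -3.09 (SE 0.34) for Y665F against WT, 1.22 (SE 0.42) for Y665H against WT, and 4.31 (SE 0.49) for Y665H against Y665F, contrasts that share libraries. In males the same 3 values were -1.07, 1.39 and 2.45, in the same order of genotypes. Whether the sexes differ in these effects was not tested, since such a test would contain the female contrasts.

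Serpina3k was at 0.760, 0.804, 1.02 and 0.838 CPM in WT females, 1.43, 0.443, 0.618 and 0.781 CPM in Y665F and 5.91, 6.15, 9.76 and 2.75 CPM in Y665H females. Every Y665H female was above all other females (log2 fold change 2.85 ± 0.35 SE, against WT), while in males Y665H overlapped WT (-0.25, SE 0.82). A Serpina3m transcript begins at the start of Serpina3k in GENCODE M21. Serpina3m had a mean of 2.22 ± 1.22 CPM in WT and 1.16 ± 0.725 CPM in Y665H females (SD, n = 4 each).

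Serpina3n ran the other way in females: 243, 279, 173 and 272 CPM in WT, 198, 235, 127 and 185 CPM in Y665F and 151, 191, 80.8 and 63.9 CPM in Y665H (log2 fold change -0.97 ± 0.34 SE, for Y665H against WT). Over the 6 groups its mean was highest in Y665H males and lowest in Y665H females. Serpina3c was at 79.4, 96.6, 46.7 and 92.9 CPM in Y665F and at 101, 106, 161 and 101 CPM in Y665H females, so that Y665F lay below every WT female.

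Serpina3g, an intracellular inhibitor of cathepsins known from leukocytes, was at 1.52, 1.45, 1.34 and 1.56 CPM in WT, 2.64, 2.57, 3.71 and 2.82 CPM in Y665F and 1.55, 2.53, 3.79 and 2.19 CPM in Y665H females. Y665F was above every WT female. T and NK cell markers summed to 15.8 to 20.9 CPM in WT, 55.8 to 76.3 CPM in Y665F and 10.4 to 39.5 CPM in Y665H females, and their part in the Serpina3g values was not tested. In males Serpina3g spread from 1.09 to 6.94 CPM in WT and from 0.643 to 7.62 CPM in Y665H, with 3.79 to 5.15 CPM in Y665F.

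By the edgeR threshold, 3 of 9 members tested were called for Y665F against WT females (3.33% of 15642 genes), 3 of 9 for Y665H against WT females (3.34% of 15469) and 2 of 7 for Y665H against Y665F females (17.4% of 15493). Nothing is read from these counts, because the members were chosen with these contrasts known. Nor is anything read from female groups that did not overlap, since the share of all genes that do so is not given here. Library totals without TMM shift the median of all genes by over 0.1 in 3 contrasts (Y665F against WT females, Y665H against Y665F females and WT males against WT females), and fold changes are relative to TMM.

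Members with similar transcripts did not all vary together across males. Of 28 pairs among the 8 members with a mean of at least 1 CPM, 2 passed adjustment over the 12 male libraries. The permutations were made across genotypes, and the share of all gene pairs that would pass is not given here. Nothing particular to the members is therefore read from this count. Adipocyte and epididymis marker sums also differed among these libraries, and their part in the correlations was not tested. For Serpina1a and Serpina1c, r was 0.95 (permutation p 1e-05, the smallest these permutations can give; adjusted 0.00028) and rho 0.92 (permutation p 0.00015, adjusted 0.0028). For Serpina3c and Serpina3n, r was 0.86 (permutation p 0.00047, adjusted 0.00658) and rho 0.90 (permutation p 0.0002, adjusted 0.0028).

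Without the 2 libraries farthest from the median, r was 0.90 for the Serpina1 pair and 0.79 for the Serpina3 pair, and after removal of the group means it was 0.94 and 0.80. In the 12 female libraries the same values were 0.65 for Serpina1a with Serpina1c and 0.07 for Serpina3c with Serpina3n (rho 0.63 and 0.26), given as a description. Serpina1a and Serpina1c share windows, so reads assigned to either are not independent. Serpina3b and Serpina3k had r 0.70 in males (permutation p 0.0128, adjusted 0.0597), which did not pass.

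The genes whose levels followed a member most closely over all 24 libraries were found by Pearson r of log2(CPM + 1) among 14830 genes, as a description over libraries that share groups. Serpina3n was nearest to Lbp, the acute phase lipopolysaccharide-binding protein (r 0.944), then Cxx1a (0.919) and Cnnm2 (0.902). Serpina3c was nearest to Gstz1, an enzyme of tyrosine breakdown (0.933), Car3, a carbonic anhydrase abundant in adipocytes (0.914), and Adhfe1 (0.906). These values stayed at 0.878 or above after removal of the group means.

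For Serpina3b the nearest were Mme, the cell-surface peptidase neprilysin (r 0.874), Idh3g (0.849) and Ncam2 (0.843), which were at 0.437, 0.262 and 0.614 with group means removed. Serpina3k had Zfand6 (0.851), Cyp2e1, a cytochrome P450 of liver and fat (0.832), and Sephs2 (0.832). Serpina1d was nearest to Ppfia3 (0.936), D430019H16Rik (0.930) and Hoxc4, a homeobox gene of body position (0.917), the last at 0.351 once group means were removed.

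Serpina1a had Sh3tc1 (0.894), Rhbdf1 (0.886) and Cdc42ep1 (0.864), and Serpina1c had Parp16 (0.835), Pcdh12 (0.814) and Gstt1 (0.796). Serpina3g had Ccdc15 (0.742), Parvg (0.718) and Il21r, the interleukin 21 receptor of lymphocytes (0.714), at 0.654 to 0.769 with group means removed.

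Other serpins and the proteases they act on were followed as lists. In both contrasts of a male mutant with WT, no gene of the 4 lists was called by edgeR. At an unadjusted p under 0.05 there were 14 of 56 (Y665F) and 12 of 59 (Y665H), against 17.1% and 11.4% of all genes tested. Between Y665H and Y665F males, the proteases called were Gzmb (log2 fold change -3.35 ± 0.49 SE, adjusted p 0.0243 by edgeR) and Gzma (-2.78 ± 0.41 SE, adjusted p 0.0258 by edgeR), granule enzymes of cytotoxic lymphocytes. Both were lower in Y665H, 2 of 19 tested, against 1.03% of all genes called. Gzmb, a target of Serpina3n, was at 2.00 to 3.43 CPM in Y665F and 0.103 to 0.461 CPM in Y665H males. Of the 6 other clade A serpins, 17 serpins of other clades and 16 acute phase genes tested there, none was called by edgeR and 2, 5 and 3 had an unadjusted p under 0.05, against 18% of all genes tested, with list medians of 0.77, 0.14 and 0.20.

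Between WT males and WT females, 2 of 6 other clade A serpins were called, Serpina3i (log2 fold change 2.92 ± 0.50 SE, adjusted p 0.0139 by edgeR) and Serpina3h (1.86 ± 0.44 SE, adjusted p 0.0328 by edgeR), both higher in males at mean levels of 1.46 and 0.671 CPM. Of 17 serpins of other clades, 5 were called, Serpine2 higher in males and Serpinb6b, Serpinb1a, Serpinh1 and Serpinf1 lower. Among 18 proteases, 3 were called and lower, Htra3, Htra1 and Ctsb. These counts stand beside 13.1% of all genes called in this contrast.

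Of 15 acute phase genes, 5 had a positive and 10 a negative fold change. Against 13.1% of all genes, 6 of these were called, 3 higher in WT males (Lcn2, Cp, Il1b) and 3 lower (Itih4, Orm1, C3). Lcn2 was at 8.52 to 1280 CPM in WT males and at most 0.648 CPM in WT females. List medians were 0.70 for other clade A serpins, -0.35 for other clades, -0.40 for proteases and -0.49 for acute phase genes, against 0.04 over all genes.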

How the data were processed

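Total RNA of adipose tissue was sequenced as stranded, ribosomal RNA-depleted read pairs, per the labels' protocols. The authors deposited raw counts per gene for each library. The submitters' processing notes name FastQC 0.11.9, Trimmomatic 0.36, STAR, SAMtools 1.9, Picard 2.9.2, HTSeq 0.9.1 and the build mm10. The annotation and the strand setting are not given in the sources used here. Per the deposited files, 5 entries that name no gene held 24.8 to 39.7% of counts and were left out, among them 4.59 to 10.7% without a unique alignment.

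Libraries were grouped by title. Each contrast was fitted on its 8 libraries over all genes with edgeR 4.0.16 (quasi-likelihood F test, TMM, filterByExpr, Benjamini-Hochberg; R 4.3.3), and the SE is the log2 fold change over the root of F. Called means an adjusted p under 0.05. DESeq2 1.42.0, library totals, no filter, a fit over all 24 libraries, a replicate block and leaving out each library were alternatives. Correlations used 100000 permutations of 12 libraries, seeded. The fits were tested on simulated counts. The labels do not say whether libraries of the same replicate number belong together. Same-numbered deviations correlated at -0.38 to 0.723, with 10 of 28 over 0.1, and in no contrast were all of them over 0.1. The highest was replicate 2 in Y665H against Y665F males. No 2 libraries of a group were alike within sampling noise (chi-square per degree of freedom at least 16.4 over 36 pairs).

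Transcripts come from GENCODE M21 and promoters from RefSeq, both GRCm38. The members and lists were chosen with earlier results of these data known. All members are named, with values in every library or their range where a group mean reached 1 CPM. Beside them stand the 3 most alike genes per member, the called list genes with the smallest p, up to 4 a list (all of them where a list held 5 or 6), and Stat5b.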

Additional observations from a re-analysis of the deposited data

Results flagged for a closer look

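Of 58 sets of 4 libraries, 1 for each member and group with values to test, 2 had a library that stood apart from the other 3, at a rate that chance gives in about 1 in 20 sets. Both concern Serpina3c. In WT females, replicate 2 was at 136 CPM, while the other 3 were at 116 to 120 CPM, a gap of 0.832 of the whole range, just past Dixon's critical value. In Y665H females, replicate 3 was at 161 CPM and the others at 101 to 106 CPM, a gap of 0.922. Y665H female 3 also had the highest Serpina3b (34.7 CPM) and Serpina3k (9.76 CPM) of all 24 libraries and the highest skeletal muscle marker sum (1840 CPM), and the part of muscle tissue in its serpin levels was not tested.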

How the results depend on the processing

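Of 495 recomputed values in the 4 tested contrasts, 448 kept direction and side of the threshold, 17 lost a call, 7 gained one and 23 changed sign. For Y665F against WT males the count of members called went from 0 to 1 (Serpina3k) with DESeq2 and with a fit over all 24 libraries. For Y665H against Y665F males it was 0 with the replicate block, and 0 to 1 without single libraries. For WT males against WT females it was 3 with DESeq2, 2 in the fit over all libraries, and 0 with no filter, with the replicate block or without the 2 male libraries highest in epididymis markers, a setting chosen after seeing the data; without single libraries it was 0 to 3. In females the counts ran from 1 to 4 (Y665F against WT) and 1 to 3 (Y665H against WT) without single libraries. Whether libraries of the same replicate number belong together is not stated in the labels. The replicate block changed no other count of member calls in the tested contrasts. The cause of these changes was not tested.

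Sign changes concerned fold changes near 0 that never passed the test. Serpina1c between WT males and females was -0.13 with the replicate block, -0.16 without the 2 male libraries, and -0.32 to 0.29 without single libraries; Serpina1a there was -0.74 to 0.01. In Y665H against WT males, Serpina3g was -0.28 with the block, -0.31 without the 2 libraries and -0.80 to 0.72 without single ones, and Serpina3k was 0.09 without the 2 libraries and -0.83 to 0.50 without single ones. Serpina3c in Y665F against WT males was -0.01 without the 2 libraries and -0.10 to 0.29 without single ones. In Y665H against Y665F males, values without single libraries were -0.06 to 0.35 for Serpina1a, -0.13 to 0.35 for Serpina1c and -0.31 to 0.19 for Serpina1d. Serpina1e and Serpina1b, with at most 1.03 CPM, are limited by depth. Of the 3 genes most alike a member, 2 or 3 stayed with a pseudocount of 0.1, and 0 to 2 stayed when ranked by Spearman's rho.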

Other observations

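Serpina1f, a clade A serpin known from the epididymis, was not among the genes chosen and was singled out after its values were seen. It was at 0 CPM in WT male 1 and at 79.8 to 514 CPM in the other WT males, at 27.4, 0, 0.143 and 471 CPM in Y665F males and at 0.791, 0.0771, 68.3 and 8.30 CPM in Y665H males. Females had at most 0.0733 CPM. WT male 2 was the highest library in both Serpina1f and epididymis markers (sum 13700 CPM), but the order of the others differed. Y665F male 4, next in Serpina1f, had an epididymis sum of 953 CPM. That was below WT male 3 (3350 CPM), Y665H male 3 (1660 CPM) and WT male 4 (1280 CPM), which had less Serpina1f. The sum of Serpina1a to Serpina1e was 23.0 CPM in WT male 1, without a Serpina1f count. In WT males 2 and 3, with Serpina1f at 514 and 200 CPM, that sum was 7.90 and 24.1 CPM. Whether Serpina1a to Serpina1e vary with Serpina1f was not tested.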
